A study of Mus musculus with 6 samples.

Results

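The genes described here are 49 components of the DNA replication machinery, chosen by name, among 17020 genes tested on 6 Affymetrix arrays of mouse growth plate chondrocytes. The cells came from the femurs and tibiae of mice at postnatal day 30, of a mixed FVB, 129S6 and C57 background. Of the arrays, 3 hold control mice and 3 hold mice with a conditional mutation of Lkb1, the older name of Stk11, a kinase that activates AMPK and related kinases. The labels name neither the Cre line nor the alleles, nor the genotype of the controls. The replicates are called biological, but nothing says that each came from its own animal or litter, so p-values measure only the spread between these samples. All 49 genes had a probe set of exactly 1 gene and passed the filter on low intensity. A level below is log2(intensity + 1) of the probe set with the highest mean over all 6 arrays, and a difference is the mean of the mutants minus the mean of the controls on that scale. Where 3 values of a group are given, they stand in the order of its replicates 1, 2 and 3.

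DNA is copied from origins that are marked by the origin recognition complex (ORC). In G1, CDC6 and CDT1 help ORC to load the MCM helicase, and geminin blocks reloading later in the cycle. In S phase the kinase CDC7 with DBF4 fires the origin, CDC45 and GINS join the helicase, and polymerases copy both strands with the PCNA clamp, its RFC loader and the RPA protein that coats single strands. E2F transcription factors are known to switch on many of these genes before S phase. In the growth plate, columnar chondrocytes of the proliferative zone divide, while resting chondrocytes divide rarely and hypertrophic ones have left the cycle.

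Replication genes were lower in the Lkb1 mutants as a group, by unequal amounts. Of the 49 genes, 28 fell and 0 rose at an adjusted p of 0.05 (limma, Benjamini-Hochberg over all 17020 genes), or 57.1% of the list. Over all genes tested 6.82% fell and 7.84% rose. At an unadjusted p of 0.05, limma found 37 lower and 0 higher, against 13.5% and 16% of all genes. The median difference of the 49 genes was -0.69, against 0.03 over all genes, and it ranged from -1.97 for Cdc6 to 0.08 for Orc4. Differences of at least 1 were found for 10 genes, all lower and called: Orc1, Cdc6, Gmnn, Mcm2, Mcm5, Mcm7, Cdc45, Lig1, Rrm2 and Uhrf1. For Orc1, Cdc6 and Gmnn no mutant array exceeded the background defined below, so the size of their differences is uncertain. The mutant means of Orc1 and Gmnn also lay below the filter on low intensity, so these genes were tested only because of their control levels. Every mutant array lay below every control array for 35 genes (71.4%), and 16.7% of all genes did so. In bulk samples, fewer dividing cells of any type, chondrocytes or others, and less of a transcript in each cell cannot be told apart. A different mix of cells cannot be told apart from these either, and markers of marrow cells, given below, also differed between the groups.

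**Figure D1:**
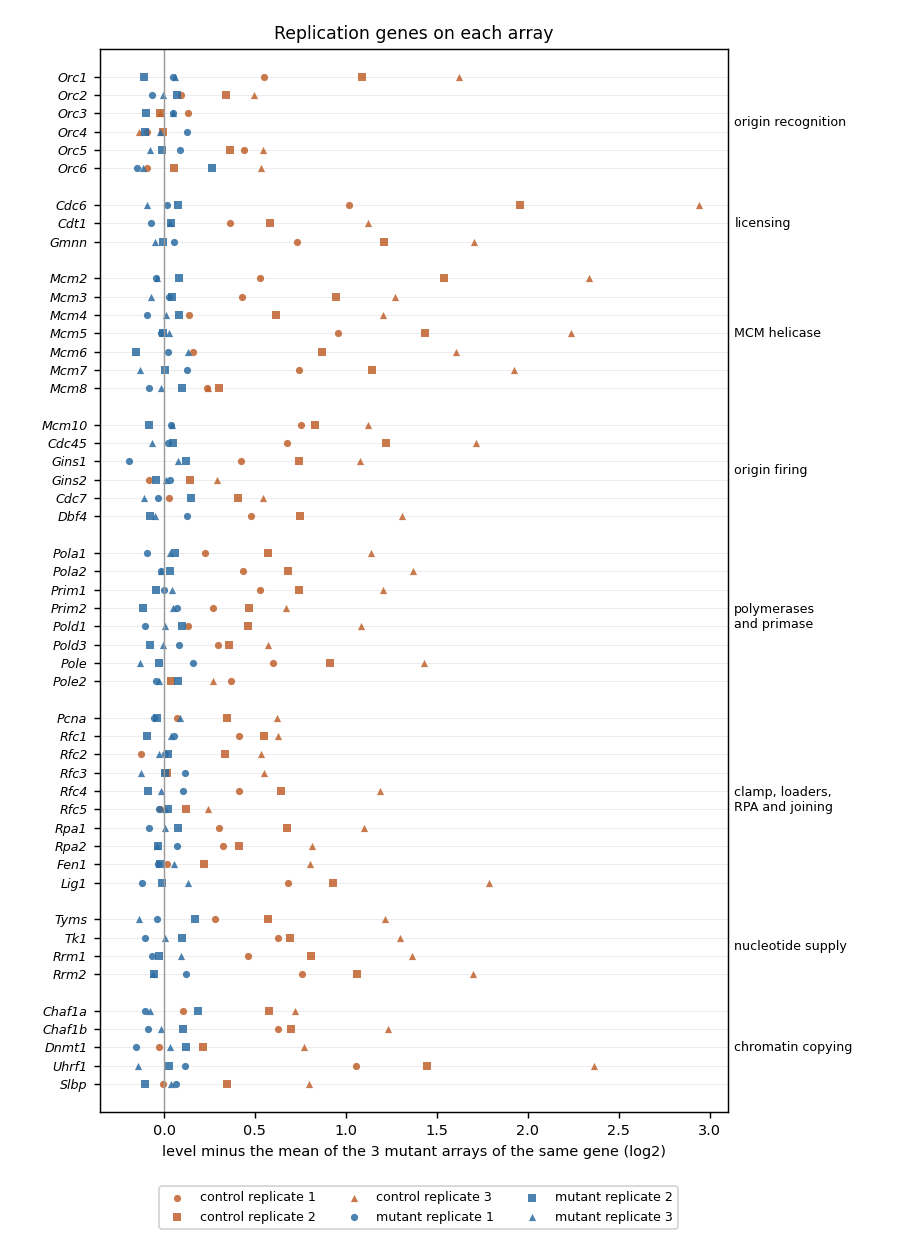
Level of each of the 49 genes on each array, minus the mean of the 3 mutant arrays of that gene (log2), grouped by role; orange marks are controls, blue marks are mutants, and the shape gives the replicate number. The mutant arrays lie close together, while control replicate 3 has the highest control level for 45 of 49 genes.

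The control arrays differed from each other far more than the mutant arrays did. The control arrays had mean levels of the 49 genes of 7.53, 7.82 and 8.26, and the mutant arrays had 7.18, 7.19 and 7.17. Control replicate 3 was thus well above the other controls, and control replicate 1 was the nearest to the mutants. The highest control level was on control replicate 3 for 45 of the 49 genes (91.8%), against 44.4% of all genes. The median SD was 0.40 over the controls and 0.085 over the mutants, against 0.16 and 0.096 for all genes. With control replicate 1 as the only control, the median difference was -0.36 and 42 of 49 genes were still below 0, a fit from which no p is given.

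Markers of other cells also differed between the groups. The chondrocyte markers, 15 genes such as Col2a1 and Acan, exceeded the background in every array. Of these 15 genes 0 fell and 1 rose, Matn1 (1.28, limma adjusted p = 0.0248), while 11 had a difference below 0. The mean of the 15 went down over the controls, at 11.61, 11.49 and 11.38, and was 11.46, 11.56 and 11.51 in the mutants. That mean thus joins genes that went opposite ways. Background here is the 95% point of 1035 olfactory receptor probe sets on the same array, 6.40 to 6.73. Of 30 bone marrow markers 25 fell in the mutants, namely 7 of 9 for erythroid cells, 10 of 12 for neutrophils and 8 of 9 for B lymphoid cells. The controls had a mean of all 30 of 8.17, 8.88 and 9.64, and the mutants one of 6.01, 6.01 and 5.79. The array with the most marrow signal was thus also the one with the highest replication genes. Erythroid (7.30, 8.49 and 9.57) and neutrophil means (9.22, 10.15 and 10.65) rose over the controls in the order of the replication genes. B lymphoid means (7.65, 7.57 and 8.37) did not keep that order, as control replicate 2 was the lowest. No erythroid gene exceeded the background in any mutant array, against 7 of 9 in all controls. Fibrous (8 of 9), endothelial (6 of 8) and macrophage markers (7 of 7) rose in the mutants. With the marrow mean as a covariate limma called 0 of the 49 genes, 0 of them lower at an unadjusted p of 0.05, and the median difference turned to 0.78. That fit called 0.106% of all genes lower, so a count of 0 members is near its background. The marrow means of the groups do not overlap, so that fit extends over a range that holds no array, and the part of marrow cells in the results was not tested beyond it. Stk11 itself fell by 1.67 on the log2 scale (SE 0.22, limma adjusted p = 0.00387). It was at 8.68, 9.08 and 9.67 in the controls, in the order of the marrow mean, and at 7.39, 7.51 and 7.52 in the mutants. Where its probes lie relative to the deleted part was not analysed here.

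**Figure D2:**
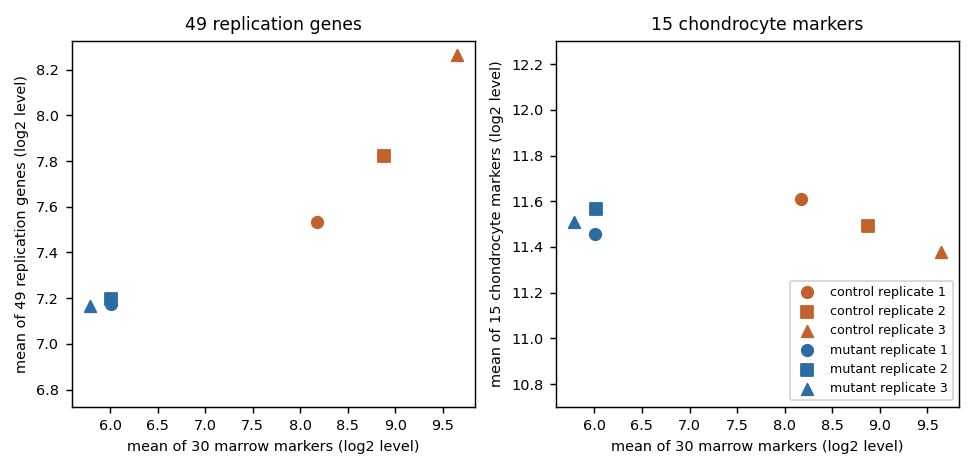
Mean level of the 49 replication genes (left) and of 15 chondrocyte markers (right) on each array, plotted against the mean level of 30 marrow markers (all log2 levels; both vertical axes span the same range). The replication mean is 7.53 to 8.26 in the controls, in the same order as the marrow mean, and 7.17 to 7.19 in the mutants. The chondrocyte mean is 11.61, 11.49 and 11.38 in the controls, the reverse of that order, and 11.46 to 11.56 in the mutants.

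Promoter sequence was not used to choose these genes, and it was searched for known motifs of replication genes. Since the motifs are known from such genes, a higher share than over all genes was likely whatever the arrays showed. The RefSeq table of GRCm38.p6 gives a window from 250 bases before to 50 after the start of 42 members. The windows were searched on both strands for an E2F site of 8 letters, TTTCCCGC or TTTGGCGC, and for CCAAT, the box bound by NF-Y; the motifs may overlap. The E2F letters were found in 14 of the 42 members (33.3%), against 1.80% of 27025 genes with a window and 2.82% of the tested ones. CCAAT was found in 25 members (59.5%), against 41.1% of all genes. With cores of 7 letters, TTCCCGC or TTGGCGC, the E2F share was 59.5%, against 7.79% of all genes. Of the 14 members with the letters 6 fell, and of the 28 without them 18 did, with median differences of -0.60 and -0.72; whether these differ was not tested. The 6 members with the E2F letters in the 180 bases before the start are shown. The sequences run 5′ to 3′ on the gene's strand and end at the base before the start. Of the 6, Cdc6, Mcm5 and Mcm7 were called lower, and Orc3, Mcm6 and Pola1 were not called. Capitals mark the E2F letters and CCAAT boxes, which read as their reverse complements where the match is on the other strand.
Orc3, chr4:34614943-34615122, minus strand: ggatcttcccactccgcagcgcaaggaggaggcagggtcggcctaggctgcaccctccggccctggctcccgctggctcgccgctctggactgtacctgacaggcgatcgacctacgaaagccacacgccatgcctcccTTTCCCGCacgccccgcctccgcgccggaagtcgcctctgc
Cdc6, chr11:98907971-98908150, plus strand: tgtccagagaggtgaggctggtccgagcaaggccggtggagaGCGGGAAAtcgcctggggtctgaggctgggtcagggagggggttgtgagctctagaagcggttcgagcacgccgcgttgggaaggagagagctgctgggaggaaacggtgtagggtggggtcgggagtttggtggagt
Mcm5, chr8:75109329-75109508, plus strand: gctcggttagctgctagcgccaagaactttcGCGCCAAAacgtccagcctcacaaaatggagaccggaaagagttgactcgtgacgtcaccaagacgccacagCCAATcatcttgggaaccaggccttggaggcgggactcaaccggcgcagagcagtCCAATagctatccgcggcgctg
Mcm6, chr1:128359706-128359885, minus strand: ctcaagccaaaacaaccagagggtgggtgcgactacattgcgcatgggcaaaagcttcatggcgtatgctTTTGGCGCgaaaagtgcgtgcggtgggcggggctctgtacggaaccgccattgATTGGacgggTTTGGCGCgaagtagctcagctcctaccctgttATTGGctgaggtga
Mcm7, chr5:138171884-138172063, minus strand: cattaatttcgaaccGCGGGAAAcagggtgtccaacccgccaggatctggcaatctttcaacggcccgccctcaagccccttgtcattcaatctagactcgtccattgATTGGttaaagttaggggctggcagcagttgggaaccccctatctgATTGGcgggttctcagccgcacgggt
Pola1, chrX:93632156-93632335, minus strand: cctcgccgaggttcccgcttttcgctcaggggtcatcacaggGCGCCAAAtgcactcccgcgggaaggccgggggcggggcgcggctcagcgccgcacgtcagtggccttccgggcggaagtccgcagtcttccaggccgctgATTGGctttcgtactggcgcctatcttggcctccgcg
A match is a description of the letters and not evidence of binding. Mcm6 holds 2 E2F matches, 110 and 47 bases before the start, with a CCAAT box between them. Those of Cdc6, Mcm5, Mcm7 and Pola1 lie farther off, at 138, 149, 165 and 138 bases.

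Within the origin recognition complex, Orc1 and Orc5 fell and the other subunits were not called. Orc1, the ATPase subunit whose level is best known to vary through the cycle, was at 5.96, 6.50 and 7.04 in the controls and at 5.47, 5.31 and 5.48 in the mutants. All mutants lay below all controls, with a difference of -1.09 (SE 0.24, limma adjusted p = 0.0247). No mutant exceeded the background, and of the controls 1 did, replicate 3, so that no fold is given. Orc5, another ATPase subunit, was at 7.59, 7.52 and 7.69 in the controls and 7.24, 7.14 and 7.08 in the mutants. Its difference of -0.45 was smaller, but the controls lay close together and did not overlap with the mutants (SE 0.09, limma adjusted p = 0.0193). Orc3, whose promoter is shown above, and Orc4 differed by -0.03 (95% interval -0.24 to 0.19) and 0.08 (-0.15 to 0.30), with overlapping groups. Those intervals leave out a decrease of the size found for Orc1. Orc2 (-0.31, adjusted p = 0.129) was lower in every mutant but not called, and Orc6 (-0.17, adjusted p = 0.605) overlapped between groups. The call of Orc1 ended without mutant replicate 2 (adjusted p = 0.09) and that of Orc5 without mutant replicate 3 (adjusted p = 0.0983), the highest values over the arrays left out.

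All 3 genes that control helicase loading fell. For Cdc6, the loading ATPase, the controls read 6.72, 7.66 and 8.65, and the mutants 5.72, 5.78 and 5.61. The controls spread widely above background, while the mutants lay together below it. The difference was -1.97 (SE 0.41, 95% interval -2.94 to -1.01, limma adjusted p = 0.0199). Since no mutant exceeded the background, the level was at least 2.14-fold lower, with each mutant set to the background of its array; its promoter, like that of Mcm5, is among those printed above. Cdt1, the partner of Cdc6, went from 8.14 ± 0.39 to 7.45 ± 0.06 (SD, n = 3 each), a fall of 0.69 with a limma adjusted p of 0.0457. Gmnn, which encodes geminin, the inhibitor of CDT1, fell as well. It was at 5.71, 6.19 and 6.68 in the controls and at 5.03, 4.97 and 4.93 in the mutants, with a difference of -1.22 (SE 0.22, limma adjusted p = 0.0115). Control replicate 3 was the 1 array on which Gmnn exceeded the background, so no fold is given. Gmnn and Orc1 are the 2 members whose mutant mean lay below the filter on low intensity, so their entry rests on the controls. The highest adjusted p with 1 array left out was 0.0776 for Cdc6 and 0.0538 for Gmnn, both without mutant replicate 3, and 0.14 for Cdt1 without mutant replicate 1.

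Every subunit of the MCM2 to MCM7 helicase was lower in each mutant than in any control, and Mcm2, Mcm3, Mcm5 and Mcm7 passed the test. Mcm5 was at 8.36, 8.83 and 9.63 in the controls, and its mutant levels of 7.38, 7.39 and 7.42 were almost identical. Its difference of -1.54 (SE 0.28, limma adjusted p = 0.0121) was the largest of the helicase genes. Mcm2 went from 7.46, 8.47 and 9.27 to 6.89, 7.01 and 6.89, the widest control spread of the complex, with a difference of -1.47 (SE 0.39, limma adjusted p = 0.045). Mcm7 fell by 1.27 (SE 0.27, adjusted p = 0.0209) and Mcm3 by 0.88 (SE 0.20, adjusted p = 0.0247). Mcm4 and Mcm6 were not called. Mcm6 was at 8.41, 9.12 and 9.86 in the controls and 8.27, 8.10 and 8.39 in the mutants, so that control replicate 1 lay just above the mutants. Its difference was -0.88 (95% interval -1.62 to -0.13, adjusted p = 0.114), and that of Mcm4 was -0.65 (-1.21 to -0.09, adjusted p = 0.116). These intervals overlap with those of the subunits that fell, so the subunits are not shown to differ from each other. All 4 calls ended once mutant replicate 3 was left out, at adjusted p of 0.135 (Mcm2), 0.0972 (Mcm3), 0.0513 (Mcm5) and 0.0849 (Mcm7). Mcm8, a related helicase used mainly in recombination, was below background on all arrays and differed by -0.26 (adjusted p = 0.0963).

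Of the 6 genes of origin firing, 4 fell. Mcm10, which helps to activate the helicase despite not being a subunit of it, had the smallest adjusted p of the 49 genes. It was at 7.30, 7.37 and 7.66 in the controls and 6.58, 6.46 and 6.59 in the mutants, with a difference of -0.90 (SE 0.12, limma adjusted p = 0.00334). Among the called members it was the one that passed without each of the 6 arrays in turn, with adjusted p up to 0.0205. Cdc45, which joins MCM in the active helicase, fell from 7.76 ± 0.52 to 6.55 ± 0.06 (SD, n = 3 each), with 1 mutant above background. Gins1, a GINS subunit, fell by 0.75 (adjusted p = 0.0278), but 1 control and 0 mutants exceeded the background. Gins2, which acts in the same complex, was at 7.07, 7.29 and 7.44 in the controls and 7.18, 7.10 and 7.16 in the mutants. The groups overlapped and the difference was -0.12 (95% interval -0.38 to 0.14). Dbf4, the activator of the CDC7 kinase, fell by 0.85 (adjusted p = 0.03), while Cdc7 itself was below background on all arrays (-0.33, adjusted p = 0.188). The adjusted p reached 0.0652 for Cdc45 and 0.11 for Dbf4 without mutant replicate 3, and 0.103 for Gins1 without mutant replicate 1.

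For 7 of the 8 polymerase and primase genes each mutant lay below each control, and 5 fell. Pole, the catalytic subunit of the leading strand polymerase, showed the largest difference of these. It was at 7.05, 7.37 and 7.89 in the controls and 6.62, 6.43 and 6.32 in the mutants, lower by 0.98 on the log2 scale (limma adjusted p = 0.0188), with 1 mutant above background. Pole2, a subunit of the same polymerase, was at 7.85, 7.52 and 7.75 against 7.44, 7.56 and 7.45. It overlapped between groups and was not called (-0.23, 95% interval -0.48 to 0.03). In polymerase alpha-primase, which makes the primers, Pola2 (-0.83), Prim1 (-0.82) and Prim2 (-0.47) fell, with adjusted p of 0.0443, 0.0172 and 0.0416, and Pola1 was not called (-0.64, adjusted p = 0.0849). Prim1 exceeded the background in every control and no mutant, and was at least 1.40-fold lower. Of polymerase delta, which copies the lagging strand, the accessory subunit Pold3 fell (-0.41, adjusted p = 0.0392) and the catalytic Pold1 was not called (-0.56, adjusted p = 0.141). With 1 mutant array left out the adjusted p reached 0.0811 for Pole and 0.136 for Pola2 (without replicate 3), and 0.0678 for Prim1, 0.148 for Prim2 and 0.144 for Pold3 (without replicate 2).

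Among the genes of the clamp, its loader, RPA and strand joining, 5 of 10 fell. Pcna, the sliding clamp, was at 10.66, 10.93 and 11.21 in the controls and 10.54, 10.55 and 10.68 in the mutants. The highest mutant lay above the lowest control, and the difference of -0.34 was not called (95% interval -0.68 to -0.01, adjusted p = 0.156). A further probe set annotated to Pcna gave -0.33. Lig1, the ligase that seals Okazaki fragments, was at 7.29, 7.54 and 8.39 against 6.49, 6.59 and 6.74. It had the largest difference of these genes, -1.13 (SE 0.26, adjusted p = 0.0276). Fen1, the nuclease that trims the same fragments, was near background and overlapped between groups (-0.35, adjusted p = 0.273). Among the clamp loader subunits, Rfc1 (-0.53, adjusted p = 0.0117) and Rfc4 (-0.75, adjusted p = 0.0381) fell, and Rfc2 (-0.25), Rfc3 (-0.19) and Rfc5 (-0.11) had adjusted p of 0.367 to 0.492. Rfc5 was at 9.08, 9.23 and 9.35 in the controls and 9.08, 9.13 and 9.11 in the mutants, with a 95% interval of -0.34 to 0.11. The RPA genes Rpa1 (-0.69, adjusted p = 0.0488) and Rpa2 (-0.51, adjusted p = 0.0451) fell, both close to the threshold. Each of these 5 calls ended when some mutant array was left out. The highest adjusted p was then 0.0572 (Rfc1) and 0.126 (Rfc4) without replicate 2, 0.149 (Rpa1) and 0.0997 (Lig1) without replicate 1, and 0.151 (Rpa2) without replicate 3.

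For all 4 genes of nucleotide supply each mutant lay below each control, and 3 fell. Rrm2, the S phase subunit of ribonucleotide reductase, was at 9.45, 9.75 and 10.39 in the controls and 8.81, 8.64 and 8.63 in the mutants. It fell by 1.17 (SE 0.22, limma adjusted p = 0.0134), and the catalytic subunit gene Rrm1 by 0.88 (adjusted p = 0.0309). Tk1, the S phase thymidine kinase, fell by 0.87 (adjusted p = 0.0185), and its further probe set gave -0.90. Tyms, which encodes thymidylate synthase, differed by -0.69 and was not called (adjusted p = 0.0838). The adjusted p reached 0.0603 for Rrm2 without mutant replicate 3, and 0.105 for Rrm1 and 0.0743 for Tk1 without mutant replicate 1.

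Genes that restore chromatin on the copied strands went different distances. Uhrf1, which brings the methyltransferase DNMT1 to newly copied DNA, was at 8.01, 8.40 and 9.32 in the controls and at 7.07, 6.98 and 6.81 in the mutants. The groups lay well apart, and the difference was -1.62 (SE 0.30, limma adjusted p = 0.0123), a 3.08-fold lower level. Dnmt1 itself was at 8.80, 9.05 and 9.60 against 8.68, 8.95 and 8.86. It overlapped between groups and was not called (-0.32, 95% interval -0.78 to 0.14). Of the chromatin assembly factor, Chaf1b fell by 0.85 (adjusted p = 0.0149), while Chaf1a differed by -0.47 (adjusted p = 0.114). Slbp, which binds histone mRNA, differed by -0.38 (adjusted p = 0.234), and its further probe set by -0.42. Without mutant replicate 3 the calls of Uhrf1 (adjusted p = 0.057) and Chaf1b (adjusted p = 0.0641) ended.

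**Figure D3:**
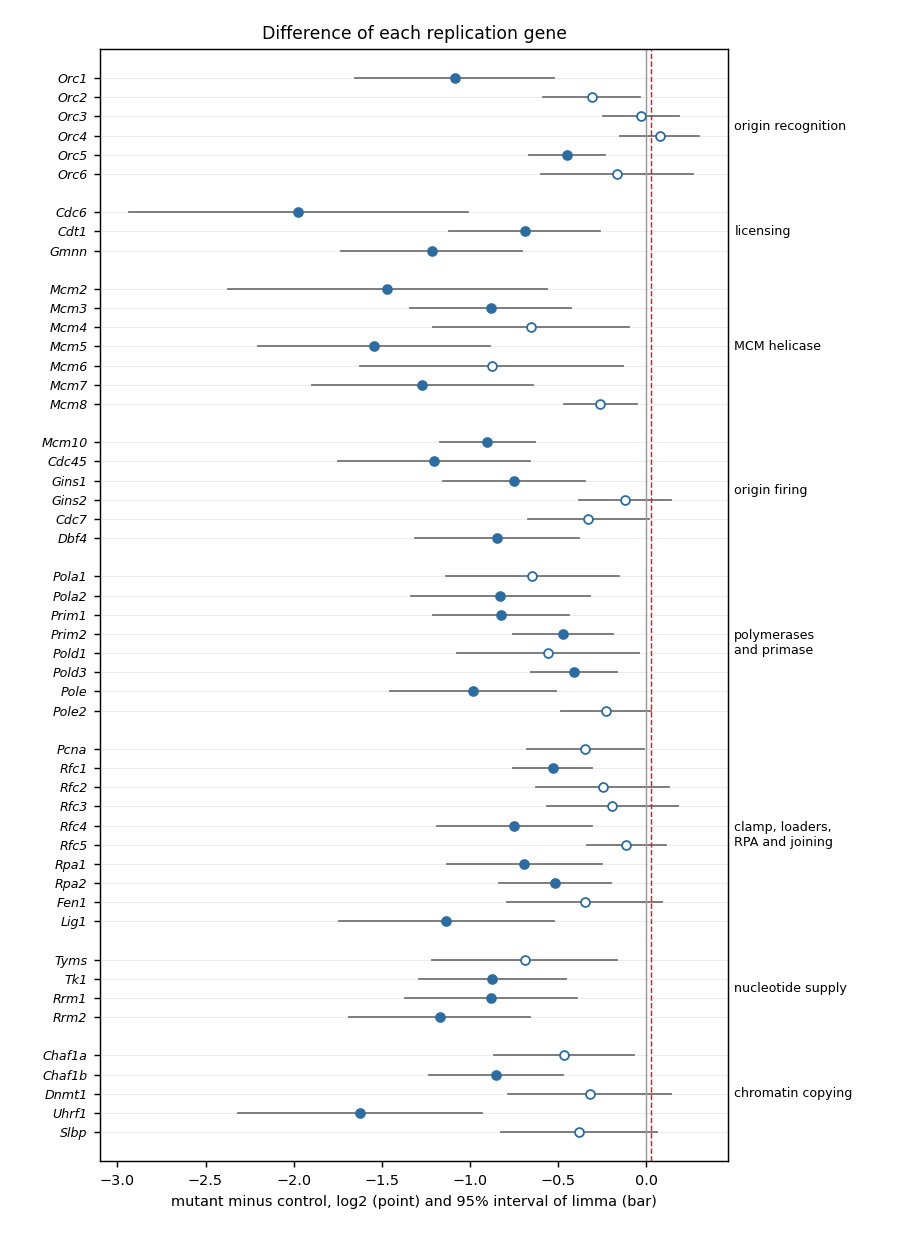
Difference of each gene, mutant minus control (log2), with the 95% interval of limma as a bar; filled points passed an adjusted p of 0.05, and the dashed line is the median of all 17020 genes, 0.03. All differences but that of Orc4 lie below 0, down to -1.97 for Cdc6, whose mutant levels were below background.

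The members that were not called fall into 2 kinds. In 7 of them (Orc2, Mcm4, Mcm6, Mcm8, Pola1, Pold1 and Tyms) each mutant was below each control. In the other 14 the groups overlapped: Orc3, Orc4, Orc6, Gins2, Cdc7, Pole2, Pcna, Rfc2, Rfc3, Rfc5, Fen1, Chaf1a, Dnmt1 and Slbp. All 28 called members had groups that did not overlap. Of the 8 members with no mutant array above background, Orc1, Cdc6, Gmnn, Gins1 and Prim1 were called and Mcm8, Cdc7 and Fen1 were not.

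The members also varied together among the controls, so each gene was compared with the mean of the 49 genes on its own array. This is a description without a test, since a choice of genes fixes the mean. The median SD over the controls dropped from 0.40 for the levels to 0.14 for these relative levels. Relative to the mean, 15 genes lay lower in every mutant than in any control and 14 higher, while 20 overlapped. No such count was made over all genes. A gene whose level did not change comes out higher on this scale, since the mean itself was lower in the mutants. Cdc6 went from -0.81, -0.16 and 0.38 in the controls to -1.46, -1.42 and -1.56 in the mutants, where its levels were below background. Of the genes above background on every array, those with the lowest relative differences were Uhrf1 (-0.93 in mutants relative to controls), Mcm5 (-0.85) and Mcm2 (-0.77). At the other end were Orc4 (0.77), Orc3 (0.67), Rfc5 (0.58) and Gins2 (0.57), whose levels differed less between the groups than the mean of the list. Cdt1 kept to the mean, at 0.28, 0.22 and 0.31 in the controls and 0.21, 0.30 and 0.32 in the mutants, and so did Rpa1 and Tyms.

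A list of 51 other replication genes was lower in the mutants as well. Of the 48 that were tested, 15 fell and 0 rose (limma), while 6.82% of all genes fell and 7.84% rose. At an unadjusted p of 0.05, 0 were higher, against 16% of all genes. The median difference was -0.33, against 0.03 over all genes. The 6 largest called differences were in Fbxo5 (-1.91), which encodes the APC/C inhibitor EMI1, Esco2 (-1.73), a cohesin acetyltransferase, Asf1b (-1.60), a histone chaperone, Pclaf (-1.30), a PCNA partner, Dck (-1.21), a nucleoside salvage kinase, and Clspn (-1.18), a fork checkpoint adaptor. Fbxo5 and Clspn exceeded the background in no mutant and were at least 2.02-fold and 1.59-fold lower, and Dck exceeded it in 1 mutant, so the order of these 6 is uncertain. Esco2 was at 7.89, 8.13 and 9.05 in the controls and 6.68, 6.54 and 6.65 in the mutants, and control replicate 3 again stood highest. Clspn and Esco2 passed without each of the 6 arrays in turn, with adjusted p up to 0.0445 and 0.0341. The calls of Fbxo5, Asf1b, Pclaf and Dck each ended without some array, with adjusted p up to 0.0543, 0.071, 0.0516 and 0.0775.

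The number of called members depended on which arrays were kept. The count of 28 was 39 without control replicate 1, 9 without control replicate 2 and 25 without control replicate 3, where 9.64%, 3.52% and 7.1% of all genes were called lower. It was 6, 5 and 1 without mutant replicates 1, 2 and 3, where 3.2%, 3.07% and 2.49% of all genes were called lower. Many calls ended in more than 1 of these 6 fits. Prim2, Pold3 and Rpa1 passed in 1 of them, Cdc6 and Mcm2 in 2, and Gmnn and Uhrf1 in 5. All 28 called members stayed below 0 in each of these fits, and the median of the 49 genes lay between -0.89 and -0.47, the latter without control replicate 3. With no filter on low intensity 21 members and 5.26% of all genes were called lower.

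**Figure D4:**
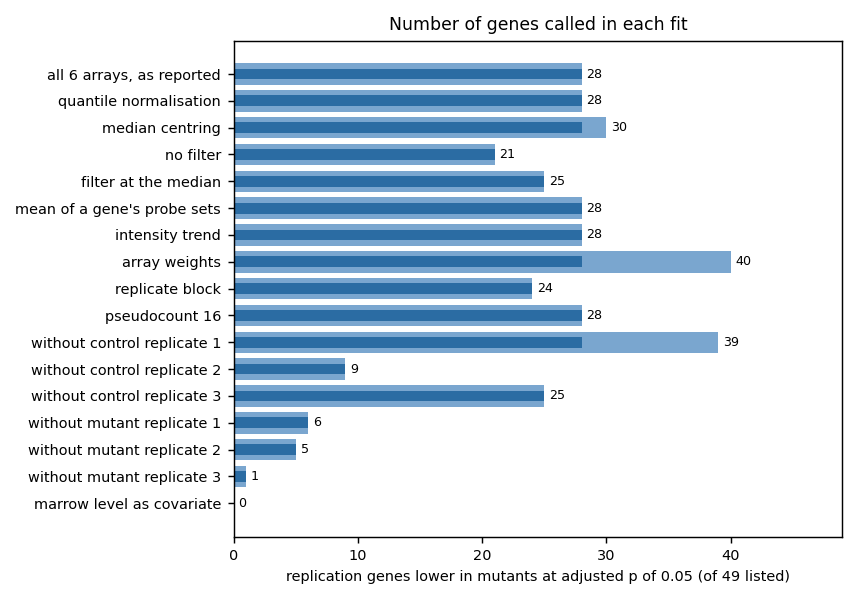
Number of the 49 genes called lower in the mutants in each limma fit (wide pale bars, with the number) and how many of them are among the 28 of the reported fit (narrow dark bars). The count is 28 with all arrays and falls to 1 without mutant replicate 3 and to 0 once the marrow mean enters as a covariate. These 3 fits called 6.82%, 2.49% and 0.106% of all genes lower.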

How the data were processed

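The only values used are probe set intensities that the authors deposited, on a linear scale, for 35512 probe sets on each of 6 arrays. Per the labels' protocols, 300 ng of total RNA was labelled with a whole-transcript kit. Probe summary, background correction and normalisation are not given in the sources used here. Groups and replicate numbers came from the sample titles. Probe sets were named through the platform annotation and the RefSeq table of GRCm38.p6, and the 21789 of exactly 1 gene were used. Values became log2(intensity + 1). Those whose mean fell in the lowest 25% (below 5.56) were left out, and the probe set with the highest mean was kept per gene. Mutants were compared with controls with limma 3.58.1 in R 4.3.3, with two-sided p-values adjusted by Benjamini-Hochberg over 17020 genes. This was tested on simulated data with independent genes and the same SD in both groups. The members differ from that setting, as they varied together and spread more in the controls. The alternatives are named in the closing section. All tested members are described, and of the other replication genes the 6 called ones with the largest difference. The members, lists and alternatives were chosen with earlier results of these data known. Only 3 arrays per group limit the precision.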

Additional observations from a re-analysis of the deposited data

How the results depend on the processing

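The members were refitted under 15 alternatives: leaving out each array, a block for the replicate number, array weights, an intensity trend, quantile normalisation, median centring, no filter, a filter at the median, a pseudocount of 16 and averaging over all probe sets of a gene. Of 729 member values, 594 kept their direction and their side of the threshold, 105 lost the call (94 of these with an array left out), 25 gained it and 5 changed sign. Those 5 were of genes never called: Orc3 with array weights (0.029), Orc4 with array weights (-0.0031), Orc3 without an array (-0.054 to 0.023, 2 values above 0) and Orc6 without an array (-0.30 to 0.017). Without an array, the calls ranged from 936 to 3282 of all genes against 2496, from 1 to 39 of the members, and from 5 to 24 of the other replication genes. The fit with array weights, which stopped before converging, gave 8006 calls, with 35 other replication genes lower and 1 higher. With the replicate block 24 members were called, all among the 28. The labels do not say whether equal numbers pair the arrays. Deviations from the group mean correlated at 0.0803, 0.213 and -0.0833 between equal numbers, and only 1 of 3 controls correlated best with its own number. With 3 arrays per group these values cannot settle whether the arrays are paired. The member median was -0.36 with control replicate 1 as the only control and 0.78 with the marrow covariate. With that covariate 0 members and 0.106% of all genes were called lower. The E2F share of 33.3% was 59.5% with 7-letter cores and 14.3% in the bases before the start. The cause of these shifts was not tested. Stk11 stayed called in all 15 fits, from -1.90 to -1.41.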

Other observations

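Apart from the 49 genes of the report, 364 tested genes held the E2F letters TTTCCCGC or TTTGGCGC in their promoter window. Of these, 9.62% were called lower in the mutants, against 6.61% of tested genes whose window lacked the letters, and the medians were -0.04 and 0.03. For CCAAT the shares were 7.61% and 6.04%. The other replication genes described above were not taken out of these counts. These are descriptions without a test, and genes are not independent replicates.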
